A study of Mus musculus with 20 samples.

Results

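Complement C3 and 8 genes of complement activation and its control were followed in mouse granulosa cells (GCs), the somatic cells that surround the oocyte in the ovarian follicle. The 9 members, C3, C4b, Cfb, Masp1, C1s1, C1ra, Serping1, Cd55 and Cd59a, were taken by gene symbol out of the 55487 genes counted in each library. C3 and Masp1 had been picked for their difference between cycle stages, so their stage values are described here without a test.

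The 20 libraries came from 2 lines at 2 stages of the estrous cycle, with 5 mice per group: ctrl in estrus, FL1 in estrus, ctrl in diestrus and FL1 in diestrus. FL1 is a mouse line bred over many generations for high female fertility, and ctrl is an unselected line; both descend from one founder population, and the labels name no agent or engineered change. All females were adults of about the same age whose stage was read from vaginal smears, and each library held the mural GCs of the largest follicles of 1 mouse, freed of oocytes and cumulus cells by the protocol. FL1 against ctrl therefore compares 2 breeding populations, not a single changed gene.

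Complement is a cascade of plasma and tissue proteins that tags cells and particles for removal. The classical pathway starts with C1q and its proteases C1r and C1s, the lectin pathway starts with mannose-binding lectins and the MASP proteases, and both cleave C4 and C2 to form an enzyme that splits C3. The alternative pathway runs through factor B and amplifies C3 cleavage, whose product C3b binds covalently to surfaces. Host cells are shielded by soluble inhibitors such as C1 inhibitor and clusterin, and by membrane proteins such as CD55, which takes C3 convertases apart, and CD59, which blocks the membrane attack pore. In the ovary, complement components are known from follicular fluid as well as from plasma.

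C3, the protein on which all pathways meet, was highest in FL1 GCs in estrus and lowest in FL1 GCs in diestrus. Its gene lies on the minus strand of chr17:57203970-57228136 (GRCm38). RefSeq (GRCm38.p6) gave a promoter window, 250 bases before to 50 after the start, for 5 members, and 4 (Masp1, C4b, Cfb and Serping1) had none in that table. The window of C3 is shown because C3 carried the widest stage and line contrasts, and that of Cd59a because its level varied least between mice. Capitals mark matches, on either strand, to 6 searched motifs. Among them were the NF-kB pattern (GGG and CC with any 5 bases between them), the STAT pattern TTCNNNGAA, the string TTGNNNCAA and the TATA box TATAAA. The others were the estrogen response element (GGTCA and TGACC with any 3 bases between them) and its repeated unit GGTCA, which every full element also holds. C/EBP sites of other spacing than TTGNNNCAA were not searched. The windows are chr17:57228087-57228386, minus strand, and chr2:104095551-104095850, plus strand, both written in the direction of the gene.
C3 promoter: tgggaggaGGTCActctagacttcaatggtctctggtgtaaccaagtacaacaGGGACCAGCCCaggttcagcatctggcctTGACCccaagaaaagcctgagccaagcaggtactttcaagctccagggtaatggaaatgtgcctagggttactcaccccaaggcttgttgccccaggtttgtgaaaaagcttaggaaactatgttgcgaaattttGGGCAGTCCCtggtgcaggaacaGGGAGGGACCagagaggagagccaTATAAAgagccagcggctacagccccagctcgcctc
Cd59a promoter: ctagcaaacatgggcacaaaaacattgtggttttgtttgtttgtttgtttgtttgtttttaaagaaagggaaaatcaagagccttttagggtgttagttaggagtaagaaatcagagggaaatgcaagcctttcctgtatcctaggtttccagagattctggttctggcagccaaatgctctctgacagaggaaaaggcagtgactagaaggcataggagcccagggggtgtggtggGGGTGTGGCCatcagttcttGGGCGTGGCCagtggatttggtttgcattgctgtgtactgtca
In C3 the NF-kB pattern matched at 4 places, counted by first base from the start at -197, -196, -33 and -10, of which the first pair overlap. GGTCA matched at -242 and -168, and TATAAA matched once, at position 15 after the annotated start. Cd59a had 2 matches, both to the NF-kB pattern, at -13 and 8. Among all 32851 promoter windows, 50.8% held the NF-kB pattern, 40.5% GGTCA, 13.6% TATAAA, 8.3% the STAT pattern, 5.82% TTGNNNCAA and 0.07% the full estrogen response element. The letters are a description of these windows, and the 2 commonest patterns occurred in a large part of all promoters.

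Levels are given as CPM, the reads of a gene per 1000000 reads on genes that passed the filter, after trimmed-mean (TMM) scaling over all 20 libraries. The libraries were 3' end libraries, so counts do not grow with transcript length and levels can be set side by side between genes, within the limits of how well each 3' end could be counted. Reads on genes ranged from 5446576 to 8257041 per library, with a median of 6457585.5. A count of 3 reads, the limit that a count of 0 allows, corresponded to 0.344 to 0.547 CPM, counting error only. Granulosa markers (8 of 8 with reads) summed to 4976 to 13159 CPM in every library, against 135 to 1713 CPM for 6 stroma markers and 3.28 to 86.1 CPM for 6 macrophage markers. All 4 oocyte markers were also present, at a summed 39.1 to 449.5 CPM. Since these are bulk samples, fewer cells of a type and less RNA per cell cannot be told apart.

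C3 was read at 0.292, 8.39, 17.9, 12.1 and 7.63 CPM in the 5 ctrl mice in estrus. In FL1 mice in estrus it reached 24.4, 19.0, 39.2, 46.3 and 35.4 CPM, so that every FL1 mouse lay above every ctrl mouse. In diestrus the ctrl mice had 0, 3.49, 6.29, 0 and 5.90 CPM and the FL1 mice 2.66, 1.10, 0, 0.684 and 1.71 CPM, and these groups overlapped. The highest FL1 mouse in diestrus carried 17 reads of C3, whereas the lowest FL1 mouse in estrus carried 152. Group means were 9.26 ± 6.45 CPM (SD, n = 5) in ctrl estrus, 32.9 ± 11.1 in FL1 estrus, 3.13 ± 3.06 in ctrl diestrus and 1.23 ± 1.01 in FL1 diestrus. The order of the means was thus FL1 estrus, ctrl estrus, ctrl diestrus, FL1 diestrus, with overlap between each neighbouring pair except the first.

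**Figure D1:**
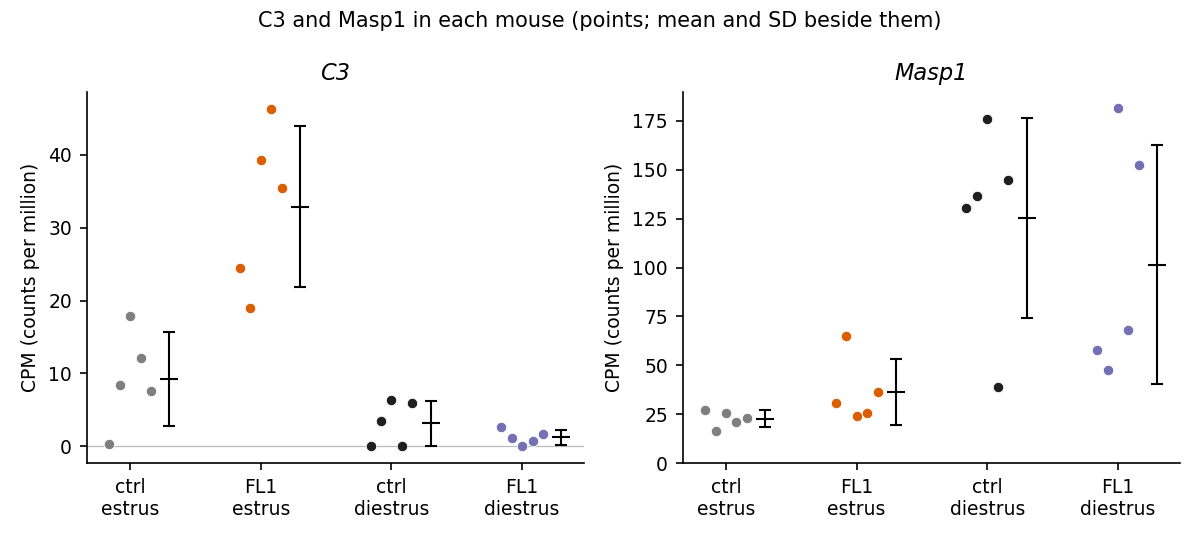
C3 (left) and Masp1 (right) in CPM on linear axes, with 1 point for each of 5 mice per group and the mean ± SD beside the points. C3 sits between 19.0 and 46.3 CPM in FL1 estrus, above all other groups, while Masp1 is higher in diestrus than in estrus, with all 5 ctrl mice in diestrus above all 5 in estrus.

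The line comparison within estrus asks whether the GCs of the high-fertility line differ from those of ctrl mice around ovulation. C3 was 3.53-fold higher in FL1 (log2 fold change 1.82, SE 0.58, 95% interval 0.59 to 3.05). The difference did not pass the test over all genes (edgeR quasi-likelihood test, Benjamini-Hochberg adjusted p = 0.192), and DESeq2 gave an adjusted p of 0.0751. Without the filter on low counts the same edgeR test called it (log2 fold change 1.83, adjusted p = 0.011), and leaving out any 1 mouse gave adjusted p between 0.122 and 0.314. In diestrus the line value of C3 was -1.34 (SE 1.41, edgeR adjusted p = 1), from groups with few reads. The FL1 estrus libraries also entered the stage contrast for which C3 had been picked.

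Other cell type markers differed in the same libraries. In estrus the summed macrophage markers ranged from 13.9 to 34.5 CPM in ctrl and from 33.8 to 86.1 CPM in FL1, all 6 markers with reads in both groups. Surface epithelium markers (4 of 4 with reads) ranged from 12.3 to 34.2 CPM in ctrl and from 24.2 to 83.0 CPM in FL1. Luteal markers (2 of 2 with reads) ranged from 41.0 to 216 CPM in ctrl and from 737 to 3776 CPM in FL1, without overlap. Their part in the C3 difference was not tested.

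By stage, and as a description only, C3 in FL1 mice was 26.5-fold lower in diestrus than in estrus (log2 fold change -4.73, 95% interval -6.06 to -3.40), without overlap between the groups. From FL1 estrus to FL1 diestrus the median sum of luteal markers went from 2182 to 299 CPM, that of surface epithelium markers from 40.5 to 19.8, that of stroma markers from 1083 to 714 and that of macrophage markers from 62.1 to 55.2, the last with a range of 8.61 to 65.2 CPM in diestrus. The part of these cell types in the C3 values was not tested. In ctrl mice C3 was 2.94-fold lower (log2 fold change -1.56, SE 1.17), and the 95% interval of that value, -4.03 to 0.91, included no change. The 5 genes whose log2 CPM followed C3 most closely over the 20 libraries, among 14937 compared, were Tpm2 (Pearson r 0.87), Palld (0.86), Lgals1 (0.84), Ildr2 (0.83) and Epcam (0.83). Tpm2 encodes a tropomyosin and Palld palladin, both proteins of the actin cytoskeleton, Lgals1 encodes galectin-1, and Epcam encodes an epithelial adhesion molecule. Epcam averaged 2.36 CPM in ctrl estrus, 12.8 in FL1 estrus, 0.722 in ctrl diestrus and 0.522 in FL1 diestrus. Tpm2 averaged 24.1, 61.7, 22.5 and 19.1 CPM in the same order. These likenesses rest on libraries that share stage and line and carry no test.

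Masp1, the lectin pathway protease on the minus strand of chr16:23449417-23520815, ran the other way and was higher in diestrus. Ctrl mice had 27.2, 16.5, 25.8, 21.1 and 23.2 CPM in estrus and 130, 137, 176, 39.2 and 145 CPM in diestrus, and the groups did not overlap. FL1 mice had 30.8, 65.0, 24.2, 25.5 and 36.2 CPM in estrus and 57.7, 47.7, 181, 67.9 and 153 CPM in diestrus, with overlap through the 65.0 CPM of replicate 2 in estrus. Group means were 22.8 ± 4.22 CPM (SD, n = 5) in ctrl estrus, 36.4 ± 16.7 in FL1 estrus, 125 ± 51.2 in ctrl diestrus and 101.5 ± 61.2 in FL1 diestrus. The order from high to low was ctrl diestrus, FL1 diestrus, FL1 estrus and ctrl estrus, and each neighbouring pair in it overlapped. Described without a test, Masp1 was 5.48-fold higher in diestrus in ctrl (log2 fold change 2.46, 95% interval 1.78 to 3.13) and 2.77-fold higher in FL1 (log2 fold change 1.47, SE 0.38). Between the lines the log2 fold change was 0.67 in estrus (SE 0.32, edgeR adjusted p = 0.467) and -0.30 in diestrus (edgeR adjusted p = 1). Neither line difference passed the test. From estrus to diestrus the median granulosa marker sum went from 7786 to 11276 CPM in ctrl and from 7804 to 8293 in FL1. Theca marker medians were also higher in diestrus in both lines. In FL1 diestrus, replicates 3 and 5, highest in Masp1, had granulosa sums of 12069 and 13159 CPM, against 7900 to 8293 in the others. FL1 estrus replicate 2, at 65.0 CPM of Masp1, had the lowest granulosa sum of all 20, 4976 CPM. The part of cell types in the Masp1 values was not tested.

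Masp1 overlaps Rtp4, Gm45338 and Gm49514 on the other strand, and whether the counting used strand is not given in the sources used here. None of the last 500 exonic bases of Masp1 lay in an exon of another gene. The genes most like Masp1 were Ext1 (Pearson r 0.87), a heparan sulfate polymerase, Tom1l1 (0.86), Robo1 (0.83), a guidance receptor, Fst (0.82), which encodes the activin-binding protein follistatin, and Enah (0.82), an actin regulator. Fst averaged 505 CPM in ctrl estrus, 665 in FL1 estrus, 1232 in ctrl diestrus and 1205 in FL1 diestrus. Masp1 was the most abundant of the 9 members by total reads, with 9536, ahead of Cd59a with 5557 and Serping1 with 5159. In estrus its means of 22.8 CPM in ctrl and 36.4 in FL1 lay below those of both genes. Serping1 averaged 43.2 and 46.6 CPM there, and Cd59a 33.7 and 51.4.

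C4b and Cfb, which supply C4 and factor B, gave almost no reads. C4b had 6 reads in 3 libraries, the most being 4 reads (0.501 CPM) in FL1 estrus replicate 2. The 3' end of C4b has a near-identical copy in C4a, which had 0 reads, and reads that map to several places were left out of the counts. Cfb had 0 reads in all 20 libraries, which allows up to 0.547 CPM. In the annotation, 92.4% of the last 500 exonic bases of Cfb also belong to Gm20547 on the same strand, itself at 0 reads, and a read shared by 2 genes would not be assigned to either. These counts therefore do not show whether GCs expressed C4b or Cfb, and both genes fell below the filter in every comparison.

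C1ra and C1s1, which encode the C1r and C1s proteases of the classical pathway, lie 6901 bases apart on chromosome 6, at chr6:124512405-124523443 (plus strand) and chr6:124530345-124542359 (minus strand). C1ra was read at 12.6, 18.5, 23.4, 33.7 and 22.0 CPM in ctrl estrus, 13.7, 11.0, 19.1, 16.0 and 9.35 in FL1 estrus, 6.62, 11.1, 8.02, 14.2 and 13.1 in ctrl diestrus, and 39.9, 12.9, 7.31, 21.0 and 10.8 in FL1 diestrus. Ctrl mice were mostly higher in estrus, with overlap, and the FL1 groups covered each other. C1s1 ranged from 8.83 to 24.2 CPM (median 16.5) in ctrl estrus, 7.82 to 33.9 (18.3) in FL1 estrus, 0 to 12.6 (9.80) in ctrl diestrus and 2.92 to 51.7 (16.2) in FL1 diestrus. Both genes have near-identical 3' copies, C1rb and C1s2, which had 56 and 42 reads over all libraries. Reads that matched both copies were left out, so how many reads C1ra and C1s1 lost in this way is unknown.

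The stage difference of C1ra in ctrl, diestrus against estrus, was -1.06 on the log2 scale (SE 0.40, 95% interval -1.90 to -0.22), with an edgeR adjusted p of 0.263. In FL1 it was 0.40 (edgeR adjusted p = 0.879). The difference between these stage effects was 1.46 (SE 0.61, edgeR adjusted p = 1). C1ra had an unadjusted p under 0.05 in ctrl and in the interaction but passed no adjusted test. C1s1 gave stage values of -0.88 in ctrl (edgeR adjusted p = 0.736) and -0.072 in FL1 (adjusted p = 0.99). Between lines, FL1 against ctrl, C1ra gave -0.67 in estrus and 0.80 in diestrus (edgeR adjusted p = 0.566 and 1), and C1s1 gave 0.46 and 1.28 (edgeR adjusted p = 0.803 and 1). Without replicate 1 of FL1 diestrus the diestrus values were 0.30 for C1ra and 0.58 for C1s1.

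Serping1, on the minus strand of chr2:84765387-84775444, encodes C1 inhibitor, the serpin that inactivates C1r, C1s and the MASP proteases. It was read at 14.6, 32.8, 62.3, 51.5 and 54.6 CPM in ctrl estrus, 59.3, 34.2, 47.4, 55.6 and 36.4 in FL1 estrus, 4.11, 29.3, 52.3, 21.0 and 21.6 in ctrl diestrus, and 91.9, 48.5, 14.6, 16.4 and 7.52 in FL1 diestrus. All groups overlapped, and the highest mouse exceeded the lowest 22.3-fold. Its log2 fold changes were 0.11 and 0.49 between lines in estrus and diestrus and -0.76 and -0.38 between stages in ctrl and FL1 (edgeR adjusted p = 0.959, 1, 0.64 and 0.894). Without replicate 1 of FL1 diestrus the line value in diestrus turned to -0.23. Leaving out any 1 library gave stage values in FL1 from -1.11 to -0.12.

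The same libraries stood at the ends for these 3 genes. FL1 diestrus replicate 1 was the highest of all 20 for C1ra, C1s1 and Serping1, and ctrl diestrus replicate 1 was the lowest for all 3. Summed stroma markers (6 of 6 with reads in every group) were 1158 CPM in the first and 141 CPM in the second of these libraries, which placed them 16th and 2nd from the lowest of 20. The same libraries were the highest and the lowest of all 20 for the summed red blood cell markers (1270 and 37.2 CPM, 2 of 2 markers with reads in every group) and endothelium markers (83.5 and 9.84 CPM, 5 or 6 of 6 with reads by group). By group the stroma sum ranged from 564 to 1247 CPM in ctrl estrus, 853 to 1713 in FL1 estrus, 141 to 665 in ctrl diestrus and 135 to 1158 in FL1 diestrus, with medians of 1120, 1083, 354 and 714 CPM. The stroma median was thus lower in diestrus in both lines. The median of C1ra went from 22.0 to 11.1 CPM in ctrl and from 13.7 to 12.9 CPM in FL1. Its mean went from 22.0 to 10.6 CPM in ctrl and from 13.8 to 18.4 in FL1, where diestrus replicate 1 stood at 39.9 CPM. The part of RNA from stroma, blood or vessels in the values of C1ra, C1s1 and Serping1 was not tested.

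**Figure D2:**
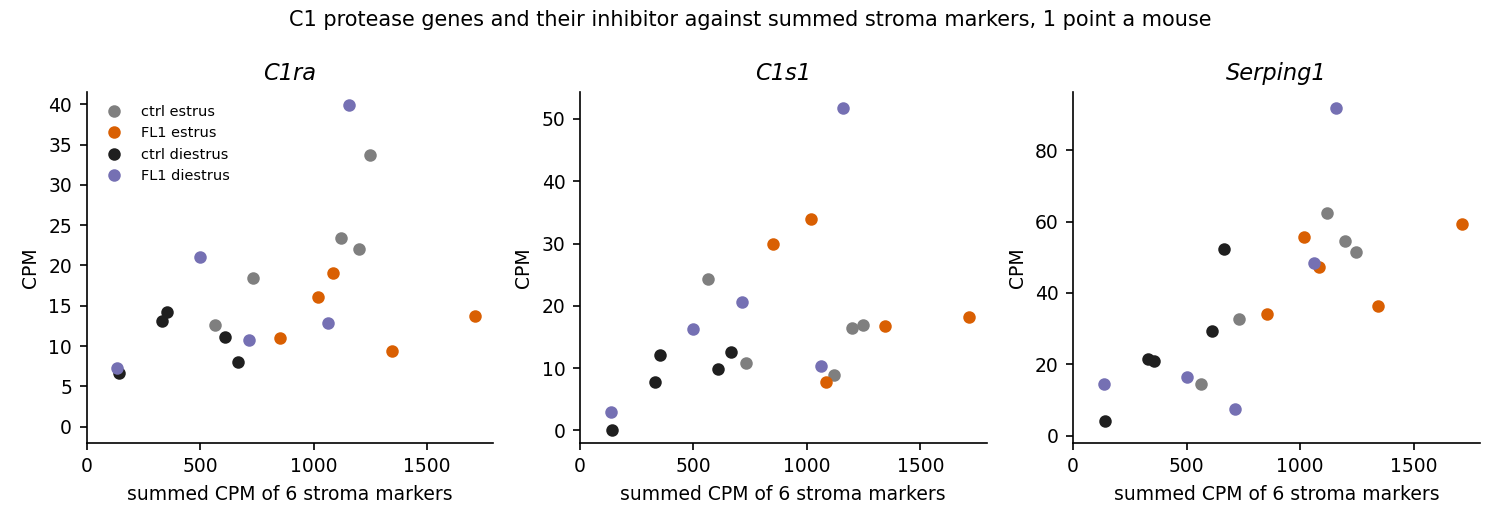
CPM of C1ra, C1s1 and Serping1 (y axes) against the summed CPM of 6 stroma markers (x axes), with 1 point per mouse coloured by group. The FL1 diestrus mouse at 1158 CPM of stroma markers is the highest point in each panel, and the ctrl diestrus mouse at 141 CPM is the lowest.

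Cd55 and Cd59a are the membrane regulators, on the minus strand of chr1:130439027-130462744 and the plus strand of chr2:104095801-104115354. Cd59a varied least between mice: its highest mouse exceeded its lowest 2.66-fold, against 6.02-fold for C1ra and 11.0-fold for Masp1, and its coefficient of variation within groups was 23.5% to 28.4%. Its values were 26.0, 29.2, 37.1, 45.9 and 30.4 CPM in ctrl estrus and 67.5, 43.5, 35.6, 54.3 and 56.1 in FL1 estrus, with overlap. In diestrus it ranged from 25.4 to 57.2 CPM (median 40.3) in ctrl and from 29.2 to 55.1 (44.2) in FL1. The line difference in estrus was 0.61 on the log2 scale (SE 0.26, 95% interval 0.06 to 1.15, edgeR adjusted p = 0.383), and in diestrus it was 0.051 (edgeR adjusted p = 1). Its stage values were 0.25 in ctrl and -0.31 in FL1 (edgeR adjusted p = 0.832 and 0.797).

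Cd55 was low, at 0 to 15.7 CPM, and had 19 libraries above 3 reads. Its group means were 5.44 ± 3.58 CPM (SD, n = 5) in ctrl estrus, 8.55 ± 4.04 in FL1 estrus, 4.63 ± 3.30 in ctrl diestrus and 5.24 ± 4.51 in FL1 diestrus. The lowest library, ctrl diestrus replicate 4, had no read, and the highest, FL1 estrus replicate 2, had 125 reads. The neighbouring paralog Cd55b had reads only in that lowest library, 33 reads at 6.01 CPM. No comparison of Cd55 passed the test, with edgeR adjusted p of 0.843 and 1 for line in estrus and diestrus and 0.971 and 0.859 for stage in ctrl and FL1. At this depth its intervals were wide: the line difference in estrus was 0.65 with a 95% interval of -0.84 to 2.14.

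**Figure D3:**
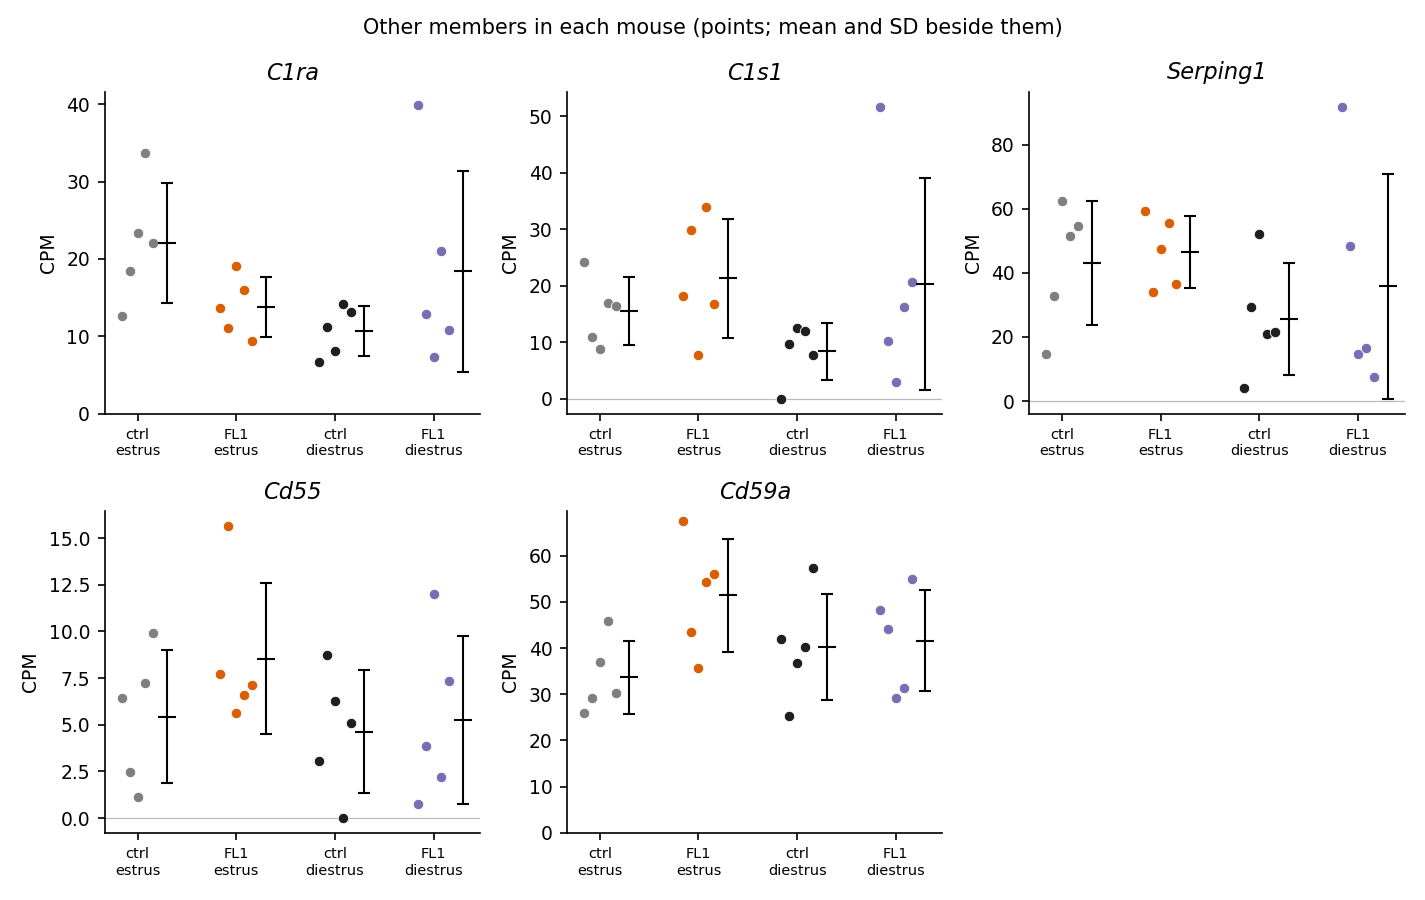
CPM of C1ra, C1s1, Serping1, Cd55 and Cd59a on linear axes, with 1 point for each of 5 mice per group and the mean ± SD beside the points. All groups overlap for every gene, and Cd59a, from 25.4 to 67.5 CPM, shows the smallest ratio of highest to lowest mouse, 2.66.

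Counted over the members, 7 of 9 passed the filter on low counts in each comparison, and C4b and Cfb did not. For line in estrus edgeR called 0 of the 7 members, 3 had an unadjusted p under 0.05 (C3, Cd59a and Masp1), and DESeq2 called 0. Of all 13007 genes tested 0.769% were called by edgeR, 10.7% had an unadjusted p under 0.05, and DESeq2 called 422. Without C3 and Masp1, whose estrus libraries had entered the stage contrast they were picked for, 1 of 5 members had an unadjusted p under 0.05 and the median log2 fold change was 0.46. The median log2 fold change of the 7 was 0.61 with 6 of 7 higher in FL1, against 0.01 over all genes. C3 was the 1 member without overlap between lines, where 3.55% of all genes had none.

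For line in diestrus edgeR called 0 of 7, none had an unadjusted p under 0.05 and DESeq2 called 0. Of all genes edgeR called 0.248%, and 5.56% had an unadjusted p under 0.05. No member was without overlap there, against 1.56% of all genes, and the median was 0.18 against 0.01. For stage, the 5 tested members other than C3 and Masp1 gave 0 calls by edgeR and 0 by DESeq2 in both lines. In ctrl 1 of these 5, C1ra, had an unadjusted p under 0.05, against 11.8% of all genes, and 1.36% of all genes were called. The median log2 fold change of the 5 was -0.76 with 4 of 5 lower in diestrus, against 0.004 over all genes. In FL1 none of the 5 had an unadjusted p under 0.05, against 9.48% of all genes, and 0.221% of all genes were called. Their median in FL1 was -0.31, against 0.01 over all genes. None of the 5 was without overlap in either line, against 3.67% of all genes in ctrl and 2.45% in FL1.

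The interaction asks whether the stage difference itself differed between lines. edgeR called 0% of 14938 genes, 710 had an unadjusted p under 0.05, and DESeq2 called 1. Of the 5 members only C1ra had an unadjusted p under 0.05, DESeq2 called 0 and the median was 0.37. C1s1 gave 0.80, Serping1 0.37, Cd55 -0.48 and Cd59a -0.56 on the log2 scale, each with an edgeR adjusted p of 1. Leaving out any 1 library gave C1s1 values from 0.10 to 1.09. For C3 and Masp1 the values, as a description, were -3.17 and -0.98 on the log2 scale. Line and stage comparisons share their libraries, so the values are given side by side and not as separate evidence.

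**Figure D4:**
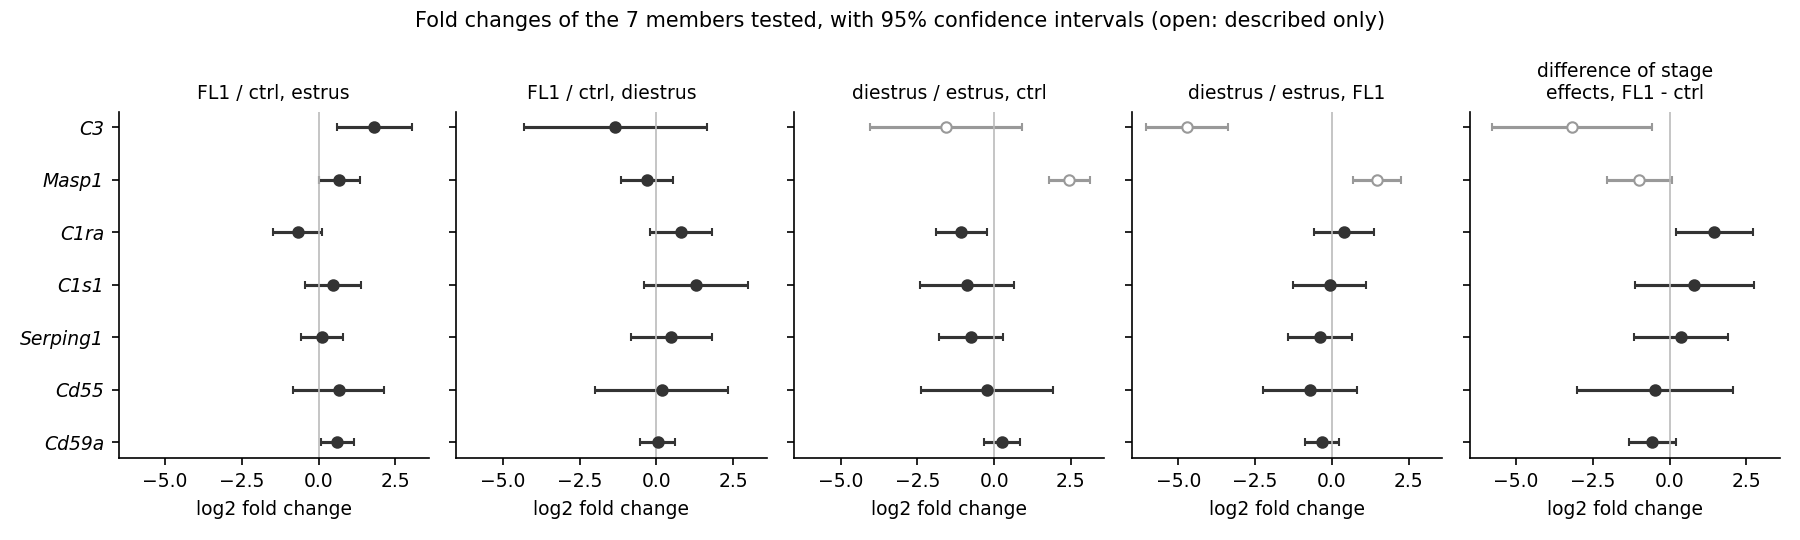
Log2 fold changes (x axes) of the 7 tested members in the 5 comparisons, with 95% confidence intervals from the edgeR fit; open grey points are values of C3 and Masp1 given without a test. C3 in estrus lies at 1.82 with an interval above 0, as do Masp1 and Cd59a in the same panel, C1ra lies below 0 for stage in ctrl and above 0 in the difference of stage effects, and every other filled point has an interval that crosses 0.

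The members were set beside the wider pathway. Of 53 complement genes listed by role, 40 had at least 1 read and 13 had none, and the list summed to 785 to 1554 CPM per library. Genes named here from that list beyond the members, the C1q genes and the receptors were chosen after their values were seen. Clu (clusterin, an inhibitor of the membrane attack complex) had a median of 372 CPM and made up 22.0% to 48.1% of the summed list, with a median of 35.2%. Cr1l (Crry, a rodent membrane regulator of C3 convertases) had a median of 162 CPM and made up 7.93% to 29.1%, with a median of 12.6%. The 9 members made up 10.8% to 23.5%, with a median of 18.1%. In role groups, 6 of 10 classical, 4 of 9 lectin, 1 of 3 alternative, 1 of 2 central, 2 of 6 terminal, 3 of 8 soluble regulator, 5 of 7 membrane regulator and 2 of 8 receptor genes passed the filter over all 20 libraries.

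**Figure D5:**
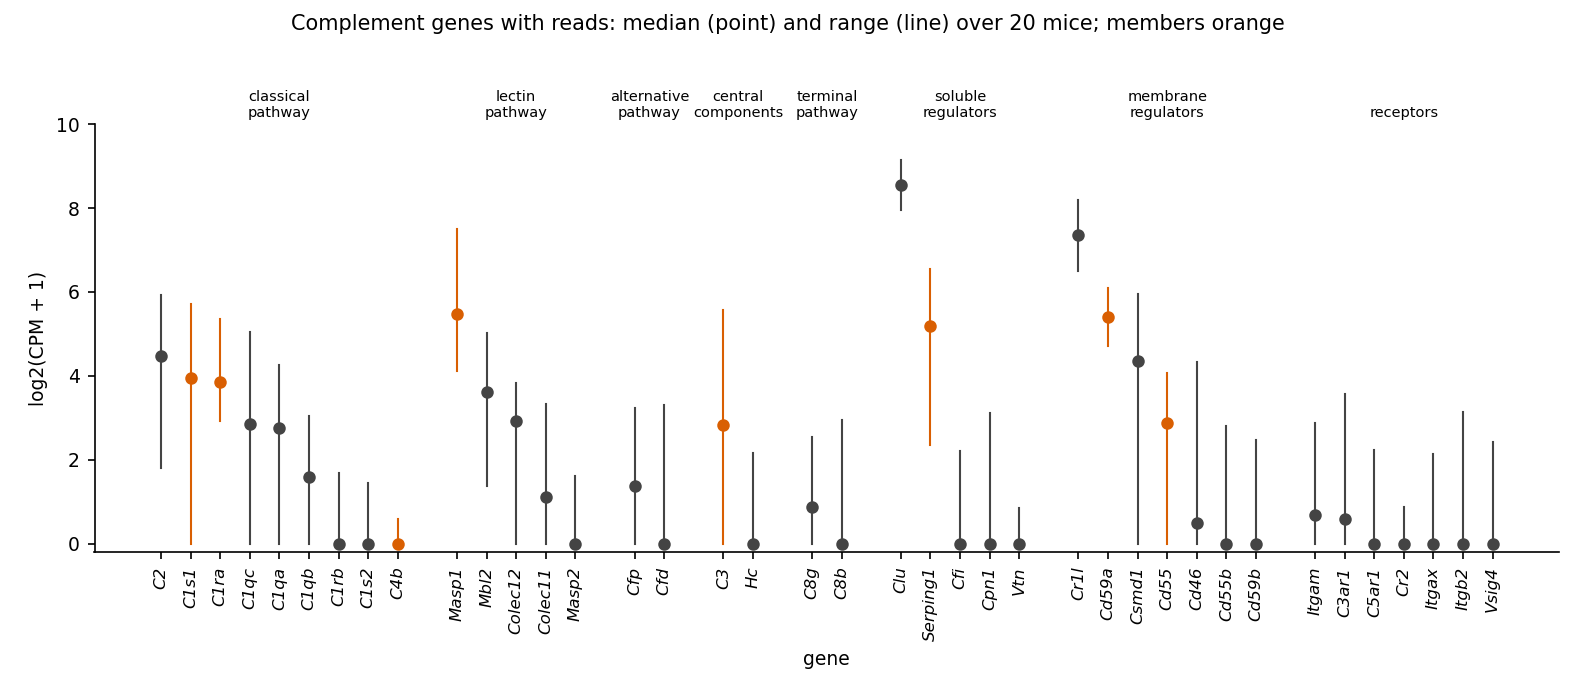
Median (point) and range (line) over 20 mice of 39 complement genes with reads, on a log2(CPM + 1) axis and grouped by role, with members in orange. Clu and Cr1l lie highest of the genes shown, and the terminal pathway and receptor genes lie near 0.

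Outside C3 and Masp1, edgeR called 0 of the list's 17, 17, 16, 18 and 22 tested genes for line in estrus, line in diestrus, stage in ctrl, stage in FL1 and the interaction. Unadjusted p values under 0.05 numbered 3, 1, 3, 3 and 3, and DESeq2 called 0, 1, 0, 2 and 0. Over all genes tested, 10.7%, 5.56%, 11.8%, 9.48% and 4.75% had an unadjusted p under 0.05, and DESeq2 called 422, 118, 525, 257 and 1. The gene DESeq2 called for line in diestrus was C2, the protease subunit of the classical C3 convertase. C2 stood at 11.3 ± 5.92 CPM in ctrl and 36.3 ± 16.1 in FL1 (SD, n = 5), without overlap. For it edgeR gave 1.69 on the log2 scale with an adjusted p of 0.262. In these ctrl and FL1 groups the median marker sums were 8.56 and 55.2 CPM for macrophages and 354 and 714 for stroma. They were 23.2 and 46.0 CPM for endothelium and 212 and 575 for red blood cells. Granulosa, theca and surface epithelium medians were lower in FL1. The part of these cell types in the C2 values was not tested. For stage in FL1 the genes DESeq2 called included Csmd1, a membrane regulator (edgeR log2 fold change 3.27, adjusted p = 0.138). Csmd1 averaged 2.14 CPM in FL1 estrus and 20.7 in FL1 diestrus, without overlap.

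C1qa, C1qb and C1qc, the subunits of C1q, which macrophages are known to make, ranged from 0 to 18.1, 0 to 7.19 and 0 to 32.1 CPM. C1qc averaged 10.3 ± 5.87 CPM in ctrl estrus, 15.4 ± 9.87 in FL1 estrus, 1.78 ± 1.59 in ctrl diestrus and 6.82 ± 5.58 in FL1 diestrus (SD, n = 5). The macrophage sum had medians of 18.8, 62.1, 8.56 and 55.2 CPM in the same order, and its part in the C1q values was not tested. Of the 8 receptors 7 had a read and 1, C5ar2, had none. C3ar1, the receptor for the C3a fragment, reached 10.9 CPM at most, with a median of 0.49. Terminal pathway genes C6, C7, C8a and C9 had 0 reads in every library, which allows up to 0.547 CPM.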

How the data were processed

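Mural granulosa cells of 20 mice (5 per group) were profiled as 3' QuantSeq libraries. The deposited files hold raw counts of reads per Ensembl gene, made by the authors with STAR on GRCm38; the strand setting of the counting is not given in the sources used here. Rows that name no gene (unmapped, multimapping, ambiguous, without a feature) took 41.6% to 51.1% of the listed reads and were left out. Symbols matched 55227 of 55487 gene IDs. Groups came from the labels of strain and stage.

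Counts were tested with edgeR 4.0.16 (R 4.3.3), quasi-likelihood F test, TMM scaling and filterByExpr (minimum count 10, minimum total 15, proportion 0.7), with Benjamini-Hochberg adjustment over all genes tested and a threshold of 0.05. Each line and stage comparison used its 10 libraries and the interaction all 20. Alternatives were DESeq2 1.42.0, RLE scaling, no filter, robust fitting, all libraries in 1 fit, pooling of members with their paralogs, a replicate block and leaving out each library. The scripts were tested on simulated data. No pair of libraries was identical: chi-square per gene was 24.7 to 82.5 over 40 pairs within groups. Near-identical 3' ends were searched with BLAST 2.17.0.

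The members and lists were chosen with earlier results of these data known. Named are all 9 members, any listed complement gene called by edgeR, the C1q genes and receptors, and the 5 genes with the highest Pearson r (log2 CPM, prior count 2) with C3 and with Masp1. Complement genes named beyond this rule were chosen after their values were seen, and 1 listed gene enters the counts but is not reported here. Each library is 1 mouse, so p-values measure the spread between mice.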

Additional observations from a re-analysis of the deposited data

Results flagged for a closer look

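In 30 groups of 5 libraries with reads of a member, 2 held a library far from the others by Dixon's criterion, where chance gives about 1 in 20. Cd55 in FL1 estrus replicate 2 was at 15.7 CPM (125 reads), against 7.71 CPM in the next library. C4b in ctrl diestrus replicate 5 was at 0.134 CPM, which is 1 read, where the other libraries had none. The criterion flags any such group whatever the count, so this flag carries no weight against the rate given by chance. The cause was not tested for either.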

How the results depend on the processing

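Of 94 recomputed counts of called members (for stage and interaction, members other than C3 and Masp1), 93 stayed the same. The exception was line in estrus without the filter on low counts, where 1 member, C3, was called instead of 0. Of the recomputed fold changes 635 kept direction and side of the threshold, 18 changed sign and 1, that of C3 just given, passed the threshold. The changes of sign concerned values within their error of 0. Pooling with paralogs (for Cd55, Cd55b) turned Cd55 to -0.15 for line in diestrus and to 0.10 for stage in ctrl. Cd55b had reads only in ctrl diestrus replicate 4, where Cd55 had 0. Leaving out 1 library gave log2 ranges of -0.11 to 0.28 (Serping1, line in estrus), -0.38 to 0.53 (Cd55), -0.081 to 0.21 (Cd59a) and -0.23 to 0.92 (Serping1) for line in diestrus, -0.59 to 0.10 (Cd55, stage in ctrl), -0.79 to 0.21 (C1s1) and -0.11 to 0.60 (C1ra) for stage in FL1, and -0.34 to 0.80 (Serping1, interaction). The cause was not tested.

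Replicate numbers did not pair the mice: same-numbered libraries deviated together with correlations of -0.12 to 0.12. With the replicate block edgeR called 0 members in each line comparison, and 0 of the members other than C3 and Masp1 in the stage comparisons and the interaction, as without it. Depth limits the members with few reads: C3 had 1589 reads in all, with 3 libraries at 0, and Cd55 805, with 1 at 0. C4b and Cfb had 6 and 0 reads, and reads at their 3' ends are shared with other genes.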
